A study of Mus musculus with 2 samples.

Results

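Distal DNaseI-seq peaks centred on protein-coding exons were examined in NMuMG, a mouse line of mammary epithelial origin, under vehicle and after 2 h of TGFβ1. A peak was distal when it overlapped no window of 1000 bp on either side of any annotated transcript start, and it was counted here when its midpoint lay in a coding segment of a protein-coding gene. Peaks with the same interval were counted once. By this rule there were 208 peaks in the vehicle list and 276 in the TGFβ 2 h list, or 484 of the 40384 peaks in both lists, at 409 loci in 395 genes. A peak was shared when it overlapped a peak of the other list by at least 1 bp and was otherwise called vehicle-only or TGFβ-only. The loci comprised 108 vehicle-only, 170 TGFβ-only and 131 shared loci, and at 73 of the shared loci the peak met the rule in both lists.

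Both samples came from this line after 6 h in medium that lacked serum and insulin, and received TGFβ1 at 5 ng/ml, or only its carrier solution with serum albumin, for 2 h. In DNaseI-seq, nuclei are digested briefly with DNaseI and stretches rich in released fragments are called as peaks, which mark open chromatin. There was 1 peak list per condition, so the spread between replicates is unknown, no test between conditions was made, and all intervals given are 95% intervals for the counting of peaks alone. The lists hold no reads, and read depth, which the study's reporting summary gives as higher for vehicle, cannot be told apart from treatment. Start-site peaks were present in both lists at 3 of 7 epithelial marker genes, namely Cdh1, Krt8 and Krt18, and were absent at Epcam, Cldn3, Cldn4 and Cldn7, and none lay at the 6 marker genes of blood, endothelial, liver and muscle cells.

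Open chromatin away from transcript starts usually marks enhancers, which mostly lie in introns and between genes, but some regulatory elements overlap exons, where the same bases carry both the protein code and binding sites for transcription factors. TGFβ1 acts through receptor kinases that phosphorylate SMAD2 and SMAD3, which enter the nucleus with SMAD4 and bind short DNA elements, often together with factors such as AP-1, the FOS and JUN dimer. Coding exons are short and rich in G and C relative to introns, so a peak centred on an exon commonly reaches into the introns beside it.

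The sequences that follow are the 200 bp centred on the midpoint of single peaks on mm9 (NCBIM37), read 5′ to 3′ on the strand of the gene. The first set is shown because it contains the AP-1 string TGANTCA, which is in capitals. Cldn6, encoding a tight-junction claudin (chr17:23818038-23818237, plus strand), Itga7, encoding a laminin-binding integrin (chr10:128387343-128387542, plus strand), and Sp7, encoding a zinc-finger factor of bone formation (chr15:102189411-102189610, minus strand), held TGFβ-only peaks. Prhoxnb, now named Urad, which encodes an enzyme of urate breakdown (chr5:148126823-148127022, minus strand), held a shared peak, centred here on the vehicle interval. Tln2, encoding an adaptor between integrins and actin (chr9:67181923-67182122, minus strand), held a vehicle-only peak.
Cldn6: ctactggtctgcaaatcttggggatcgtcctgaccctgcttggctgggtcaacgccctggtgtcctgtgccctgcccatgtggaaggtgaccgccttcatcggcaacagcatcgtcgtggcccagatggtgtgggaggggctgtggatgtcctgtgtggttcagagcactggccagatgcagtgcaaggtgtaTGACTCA
Itga7: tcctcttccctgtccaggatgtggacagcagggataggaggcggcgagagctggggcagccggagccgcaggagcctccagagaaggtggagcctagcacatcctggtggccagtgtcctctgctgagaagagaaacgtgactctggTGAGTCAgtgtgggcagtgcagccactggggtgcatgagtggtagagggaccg
Sp7: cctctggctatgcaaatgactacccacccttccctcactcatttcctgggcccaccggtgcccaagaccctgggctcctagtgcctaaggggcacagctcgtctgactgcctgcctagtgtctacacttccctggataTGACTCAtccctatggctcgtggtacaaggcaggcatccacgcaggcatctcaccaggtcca
Prhoxnb: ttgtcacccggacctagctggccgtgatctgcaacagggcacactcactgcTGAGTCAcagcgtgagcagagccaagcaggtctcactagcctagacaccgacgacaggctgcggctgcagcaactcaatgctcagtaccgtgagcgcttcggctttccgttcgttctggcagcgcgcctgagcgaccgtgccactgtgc
Tln2: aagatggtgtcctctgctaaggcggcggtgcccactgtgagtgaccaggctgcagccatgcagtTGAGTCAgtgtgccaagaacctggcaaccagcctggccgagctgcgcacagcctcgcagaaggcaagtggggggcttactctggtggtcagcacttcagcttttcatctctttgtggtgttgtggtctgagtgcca
In Cldn6, Sp7, Urad and Tln2 the string lay wholly within coding bases. In Itga7 it lay in the intron beside the coding segment.

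The second set is shown for how these windows sit on their exons, and capitals mark coding bases. Both are vehicle-only peaks, in Cdk18, which encodes a cyclin-dependent kinase (chr1:134017931-134018130, minus strand), and in Npas1, which encodes a transcription factor of the bHLH-PAS family (chr7:17048602-17048801, minus strand).
Cdk18: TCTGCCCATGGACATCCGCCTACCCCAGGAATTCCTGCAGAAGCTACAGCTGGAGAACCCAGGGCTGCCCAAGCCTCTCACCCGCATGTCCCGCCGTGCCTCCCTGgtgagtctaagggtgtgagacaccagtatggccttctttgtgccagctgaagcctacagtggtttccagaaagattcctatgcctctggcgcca
Npas1: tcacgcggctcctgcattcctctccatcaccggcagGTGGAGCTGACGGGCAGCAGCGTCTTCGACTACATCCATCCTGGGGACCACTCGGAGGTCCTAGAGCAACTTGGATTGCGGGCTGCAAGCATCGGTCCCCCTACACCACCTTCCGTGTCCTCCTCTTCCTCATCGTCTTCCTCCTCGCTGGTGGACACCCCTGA
Coding bases made up 106 of the 200 in Cdk18 and 164 of the 200 in Npas1.

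The third set shows shared peaks, all centred on the vehicle interval, whose windows held the SMAD string GGCGC or a CTCF core, in capitals on either strand. Gdf15 encodes a secreted member of the TGFβ superfamily (chr8:73153726-73153925, minus strand) and Trim14 encodes an adaptor of antiviral signalling (chr4:46520140-46520339, minus strand). Both held GGCGC. Synpo2l encodes a cytoskeletal protein of striated muscle (chr14:21480367-21480566, minus strand), held a CTCF core and was chosen after its values were seen.
Gdf15: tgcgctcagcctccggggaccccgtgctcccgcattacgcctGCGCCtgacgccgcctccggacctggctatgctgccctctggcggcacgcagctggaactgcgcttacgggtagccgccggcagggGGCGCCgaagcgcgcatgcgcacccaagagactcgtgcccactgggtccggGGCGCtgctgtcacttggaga
Trim14: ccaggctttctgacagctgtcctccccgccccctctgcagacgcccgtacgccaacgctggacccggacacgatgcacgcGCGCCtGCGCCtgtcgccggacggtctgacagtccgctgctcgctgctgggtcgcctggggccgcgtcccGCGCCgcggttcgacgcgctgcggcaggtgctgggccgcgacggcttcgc
Synpo2l: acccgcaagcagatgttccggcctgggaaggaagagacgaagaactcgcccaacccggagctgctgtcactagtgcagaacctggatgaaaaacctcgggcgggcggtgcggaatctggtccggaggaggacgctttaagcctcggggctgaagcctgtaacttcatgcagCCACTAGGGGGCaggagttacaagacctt
The GC content of these windows was 71.5% in Gdf15, 74.5% in Trim14 and 59% in Synpo2l.

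Coding-exon peaks were a small group, but coding exons carried more peaks per base than other distal sequence. They were 2.76% of the 7533 distal vehicle peaks and 2.34% of the 11783 distal TGFβ 2 h peaks. Distal coding sequence measured 26.3 Mb and held 7.92 peaks per Mb (6.88 to 9.07) in vehicle and 10.5 (9.30 to 11.8) in TGFβ 2 h. Introns held 3.36 peaks per Mb (3.24 to 3.48) and 5.58 (5.42 to 5.73), so that coding sequence was 2.36 times as dense in vehicle and 1.88 times as dense in TGFβ 2 h. Intergenic sequence held 2.77 and 4.18 peaks per Mb. The ratio of coding to intronic density came down to 1.23 for TGFβ 2 h when that list was cut, by its own score, to the length of the vehicle list, and to 1.80 and 1.24 for vehicle and TGFβ 2 h among peaks at the highest score.

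**Figure D1:**
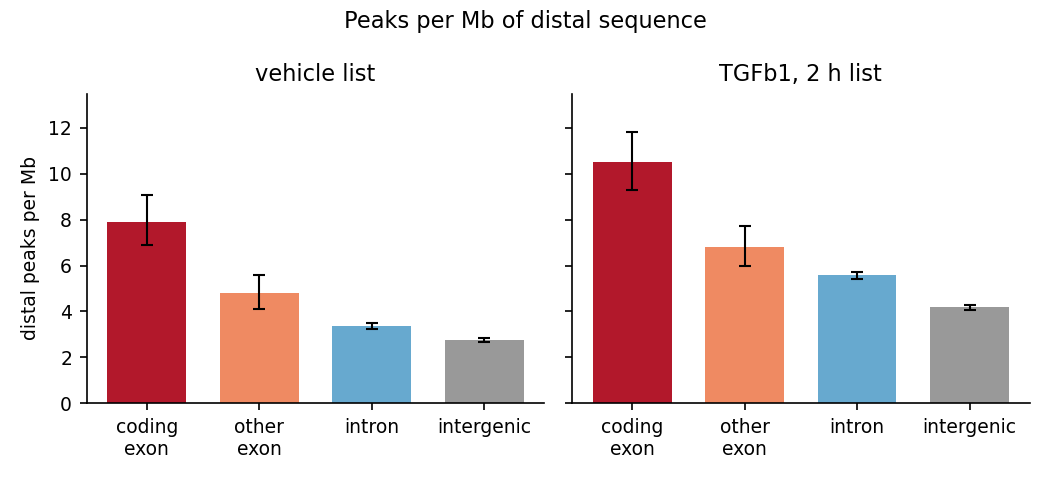
Distal peaks per Mb of distal sequence (y axis, linear) by the position of the peak midpoint, for each list. Bars are the density and error lines its exact Poisson 95% interval. Coding exons stand highest in both lists, at 7.92 and 10.5 peaks per Mb.

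Within coding sequence, the density was higher for first and last coding exons than for internal ones, and for segments of 200 to 500 bp than for shorter ones, beyond the counting intervals in the TGFβ 2 h list alone. Internal exons held 137 vehicle peaks and 172 TGFβ 2 h peaks, the largest groups. Their density was 7.20 per Mb (6.05 to 8.52) and 9.04 (7.74 to 10.5), against 10.9 (8.12 to 14.4) and 16.0 (12.5 to 20.1) for last coding exons, with overlapping intervals in vehicle. First coding exons, whose sequence within the start windows was left out, held 9 and 19 peaks, at 8.66 and 18.3 per Mb, and their interval lay above that of internal exons in TGFβ 2 h and overlapped it in vehicle. In TGFβ 2 h, segments of 200 to 500 bp held 17.6 peaks per Mb (14.1 to 21.7), those of 500 to 1000 bp held 13.8 (9.56 to 19.3) and those under 200 bp held 8.60 (7.15 to 10.3), and the interval of the 500 to 1000 bp group overlapped the others. In vehicle the same groups held 10.2 (7.61 to 13.4), 12.2 (8.22 to 17.4) and 7.07 (5.75 to 8.58), with overlapping intervals. Segments over 1000 bp held 6.34 (4.14 to 9.28) in vehicle and 7.55 (5.13 to 10.7) in TGFβ 2 h.

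A larger share of coding-exon peaks than of intron or intergenic peaks was absent from the other list in vehicle. In TGFβ 2 h the share was larger than that of intergenic peaks, but this order reversed with lists of equal length and at high scores. Of the 208 vehicle members, 108 had no overlap with the TGFβ 2 h list, or 51.9% (45.2 to 58.6), where the background was 31.6% over all distal vehicle peaks and 17.6% over all vehicle peaks. The same share was 31.6% (29.9 to 33.2) for introns, 30.2% (28.8 to 31.6) for intergenic peaks and 41.5% (34.4 to 49.0) for exon bases that are not coding. Of the 276 TGFβ 2 h members, 170 had no overlap with the vehicle list, or 61.6% (55.7 to 67.1), where the background was 55.3% over all distal TGFβ 2 h peaks and 33.7% over all of that list. Introns gave 58.2% (56.9 to 59.6), within the interval of the coding share, although the shares differed within ranges of high GC content, noncoding exons gave 57.2% (50.9 to 63.3), and intergenic peaks gave 52.6% (51.3 to 53.8), below that interval. There were thus 1.57 TGFβ-only coding-exon peaks for each vehicle-only one (1.23 to 2.02), against 3.07 (2.85 to 3.30) in introns and 2.63 (2.46 to 2.81) between genes. Noncoding exons gave 1.96 (1.46 to 2.64), an interval that overlapped the coding one. The gap to introns was smaller among windows of high GC content. With lists of equal length the TGFβ-only share was 32.8% over coding exons, below the 41.4% of intergenic peaks. It was also lower from a score of 700 to below the ceiling, at 39.0% against 51.8%, and at the ceiling, at 7.89% against 18.5%.

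**Figure D2:**
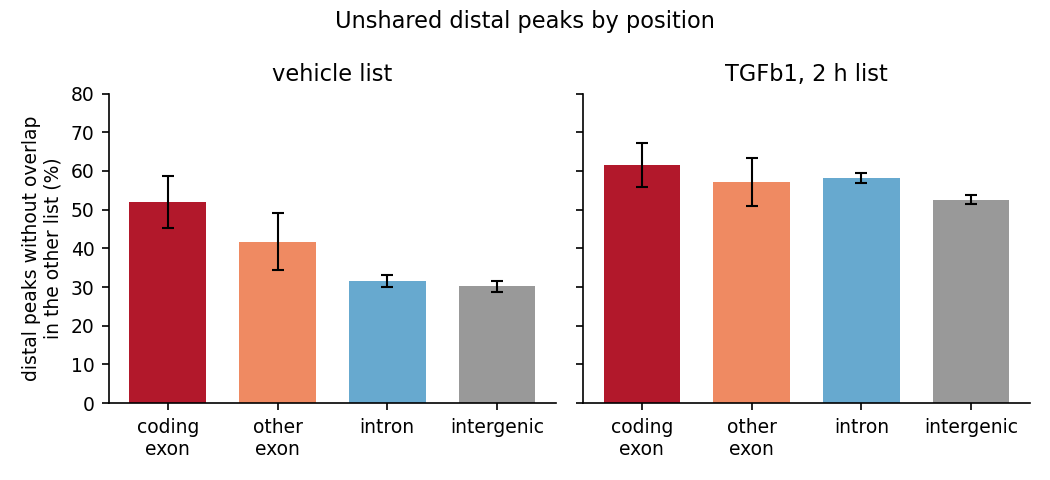
Share of distal peaks without overlap in the other list (y axis, percent) by position of the midpoint. Bars are shares and error lines Wilson 95% intervals. Coding exons stand at 51.9% against 31.6% for introns and 30.2% for intergenic peaks in the vehicle list, and at 61.6% against 58.2% and 52.6% in the TGFβ 2 h list.

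The ratio of TGFβ-only to vehicle-only peaks fell below 1 over coding exons when the TGFβ 2 h list was shortened by its own score. With the TGFβ 2 h list cut to the length of the vehicle list, 40 TGFβ-only peaks faced 132 vehicle-only peaks over coding exons, a ratio of 0.303, while introns gave 1.28 and intergenic sequence 1.04. Coding exons thus kept the lowest ratio of these positions, on the other side of 1. The cut left 17784 of all 22600 TGFβ 2 h peaks and 122 of the 276 members. It took away the lowest scores, and 90 of the 170 TGFβ-only members scored under 600. Whether list length or score lay behind the change was not tested.

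The ratio differed by score. In either list the deposited score lay between 540 and a ceiling of 1000, and whether the lists share 1 scale of scores is not stated. Below a score of 600 there were 90 TGFβ-only and 38 vehicle-only coding-exon peaks, a ratio of 2.37 (1.60 to 3.56), close to the 2.49 (2.18 to 2.85) of introns. From 600 to under 700 the counts were 54 and 38, a ratio of 1.42 (0.921 to 2.21), against 3.01 (2.64 to 3.45) in introns. From 700 to below the ceiling there were 23 TGFβ-only and 30 vehicle-only peaks, a ratio of 0.767 (0.425 to 1.37), against 3.25 (2.87 to 3.68) in introns and 2.84 (2.54 to 3.19) between genes. At the ceiling, 2 of 32 vehicle and 3 of 38 TGFβ 2 h members were unshared, or 6.25% (1.73 to 20.1) and 7.89% (2.72 to 20.8), where introns gave 5.00% (3.54 to 7.01) and 21.4% (19.1 to 24.0).

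**Figure D3:**
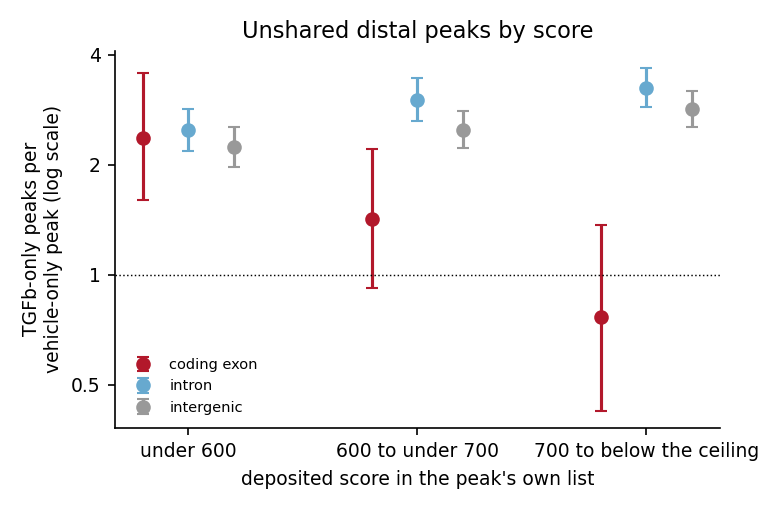
TGFβ-only peaks per vehicle-only peak (y axis, log scale) in 3 ranges of the deposited score, for distal coding-exon, intron and intergenic peaks. Points are ratios and lines exact binomial 95% intervals, and the dotted line marks 1. Coding exons go from 2.37 to 0.767 with rising score, while introns go from 2.49 to 3.25.

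GC content, the AP-1 string and distance from starts moved with position, and the shares within ranges of each are given here. The vehicle-only share was higher over coding exons than in introns in each of the 4 ranges of GC, at 62.5% against 31.9% below 50% GC, 52.4% against 33.3% from 50 to 55%, 57.9% against 32.2% from 55 to 60%, and 46.2% against 23.7% at 60% or more. The TGFβ-only share was 60.9% against 65.5% below 50% GC and 60.9% against 58.8% from 50 to 55%, with overlapping intervals. It was higher over coding exons from 55 to 60%, at 73.8% (63.5 to 82.0) against 51.4% (48.4 to 54.4), and at 60% or more, at 53.7% (44.9 to 62.2) against 37.8% (33.2 to 42.6), and these ranges held 62 and 66 of the 170 TGFβ-only members.

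The ratio of TGFβ-only to vehicle-only peaks was closer to that of introns at high GC. Over coding exons it was 1.40 (0.578 to 3.52) below 50% GC and 1.27 (0.702 to 2.33) from 50 to 55%, against 4.14 (3.65 to 4.69) and 2.77 (2.45 to 3.14) in introns. From 55 to 60% it was 1.88 (1.21 to 2.96) against 2.40 (2.05 to 2.82), and at 60% or more 1.53 (1.03 to 2.31) against 1.96 (1.49 to 2.61), with overlapping intervals in both of these ranges. Without peaks that held the AP-1 string the vehicle-only share was 54.1% against 36.3%, and the ratio of TGFβ-only to vehicle-only peaks was 1.48 (1.14 to 1.91) against 2.33 (2.15 to 2.52). More than 5000 bp from any start the vehicle-only share was 55.5% (46.8 to 63.8) against 31.7% (29.8 to 33.6).

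Unshared members were narrower and lower in score than shared ones, as were unshared peaks in introns and between genes. The median width was 421 bp for vehicle-only peaks, from 92 to 936, and 352 bp for TGFβ-only peaks, from 73 to 954. Shared peaks had medians of 619 bp in vehicle, from 158 to 1402, and 563 bp in TGFβ 2 h, from 87 to 1628. The ranges overlapped widely. The median score was 627 for vehicle-only, 595 for TGFβ-only, 786 for shared vehicle and 838.5 for shared TGFβ 2 h peaks. Intron peaks of these 4 classes had median widths of 464.5, 438, 654 and 596 bp and median scores of 646.5, 677, 819.5 and 915. The ceiling was reached by 1.85% of vehicle-only (0.509 to 6.50) and 1.76% of TGFβ-only members (0.602 to 5.06), and by 30% (21.9 to 39.6) and 33.0% (24.8 to 42.4) of shared members in the 2 lists. TGFβ-only peaks of introns reached it more often, at 7.72% (6.81 to 8.73), as did those between genes, at 8.48% (7.57 to 9.49).

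**Figure D4:**
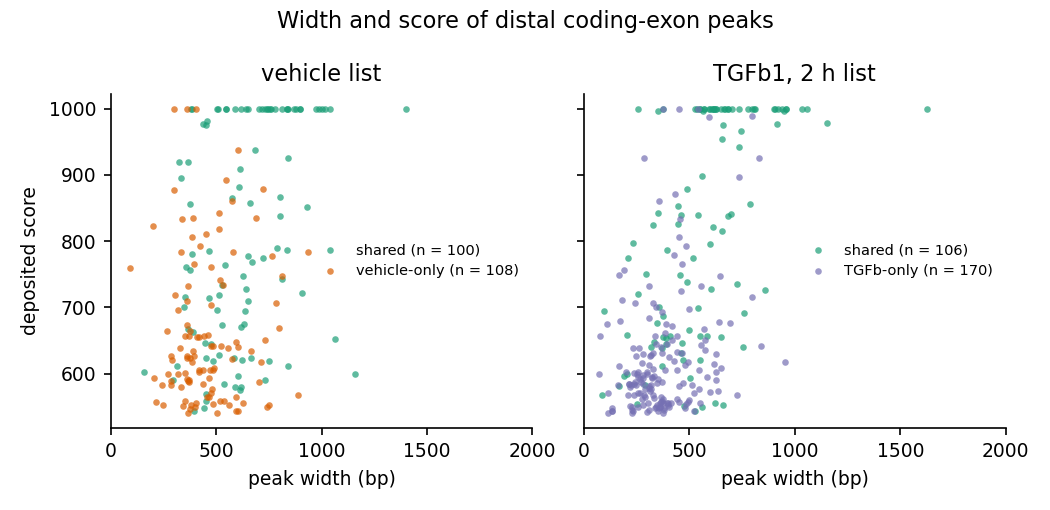
Width in bp (x axis) and deposited score (y axis) of each distal coding-exon peak, 208 in the vehicle list and 276 in the TGFβ 2 h list, coloured by class. TGFβ-only peaks crowd at the lower left, with medians of 352 bp and 595, and most points on the line at 1000 are shared peaks.

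Where a vehicle and a TGFβ 2 h member overlapped each other and no further peak, the TGFβ 2 h score was higher about as often as it was lower. Among 70 such pairs the TGFβ 2 h score was higher in 27, lower in 26 and equal in 17, all 17 of these at the ceiling. In introns it was higher in 993 and lower in 593 of 1982 pairs, and between genes higher in 1135 and lower in 873 of 2715. The TGFβ 2 h peak was the narrower one in 67.1% (55.5 to 77.0) of coding-exon pairs, in 59.3% (57.2 to 61.5) of intron pairs and in 63.4% (61.6 to 65.2) of intergenic pairs. At shared vehicle members the overlapping TGFβ 2 h peak had its midpoint in coding sequence in 73 of 100, in an intron in 19, in a noncoding exon in 6 and within a start window in 2.

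Few members consisted of coding bases alone. Wholly coding peaks numbered 23 of 208 in vehicle and 56 of 276 in TGFβ 2 h. The median share of coding bases was 56.3% in vehicle-only and 68.8% in TGFβ-only peaks, and 46.4% and 49.9% in shared vehicle and shared TGFβ 2 h peaks. The narrowest class was also the most coding, an order that the midpoint rule favours, as a narrower peak reaches less far beyond its segment. The median coding segment under the midpoint ran from 198.5 to 238.5 bp over the classes, beside 182 bp for distal coding sequence weighted by length. At the edge of the rule, 289 vehicle and 374 TGFβ 2 h distal peaks touched coding bases with the midpoint elsewhere, and 1528 and 1488 peaks with a coding midpoint overlapped a start window. Members over 1000 and up to 1500 bp from a start were unshared in 12 of 27 cases in vehicle and 11 of 26 in TGFβ 2 h, and peaks over 500 and up to 1000 bp from a start, just outside the rule, in 17 of 29 and 18 of 31.

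A few members may not be far from every start in later annotation. A RefSeq start of GRCm38.p6, matched by 100 bases of sequence, lay within 1000 bp of 7 vehicle and 10 TGFβ 2 h members. The widest member, of 1628 bp at Hhex, encoding a homeobox factor, was one of these. Genes with a member had a peak in their own start window about as often as genes in general, at 49.0% (42.2 to 55.9) in vehicle and 49.1% (43.1 to 55.0) in TGFβ 2 h, against 45.7% and 46.3% of all 22350 protein-coding gene identifiers.

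The vehicle-only members with the highest scores lay in genes of varied function. The peak in Trmu, encoding a mitochondrial tRNA-modifying enzyme (chr15:85726639-85726999, coding exon 9 of 11), and that in Cdk18 (chr1:134017828-134018234, coding exon 3 of 15) had scores of 1000. Nfkbiz, encoding a nuclear regulator of NF-κB target genes, held vehicle-only peaks in neighbouring exons, at chr16:55816824-55817122 in coding exon 6 with a score of 999 and at chr16:55816297-55816657 in coding exon 7 with a score of 673. Cxcl17, a chemokine gene, followed with 938, then Rinl, encoding a regulator of Rab proteins, with 892, Tmem102 with 879, Npas1 with 877 and Abca4, encoding a photoreceptor lipid transporter, with 861. Their coding shares ran from 13.4% in Cxcl17 to 83.5% in Tmem102, and none of these 8 peaks held the AP-1 string in its central 200 bp.

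Among TGFβ-only members, 3 reached the ceiling. The peaks in Cldn6 (chr17:23817913-23818362, in its only coding exon), in Slc5a4b, of the sodium and glucose cotransporter family (chr10:75534914-75535453, coding exon 10 of 15), and in Pkd1l1, encoding a polycystin of cilia (chr11:8726600-8726973, the last of 50 coding exons), had scores of 1000. In Pkd1l1 the coding segment under the midpoint was 30 bp, so that 8.02% of the peak was coding. Poln, encoding a DNA polymerase, had 989, Ubr4, a ubiquitin ligase gene, 988, Crym, encoding a thyroid hormone-binding crystallin, 926, Itga7 926 (chr10:128387029-128387856, coding exon 22 of 26) and Dtx4, a ubiquitin ligase gene of the Notch pathway, 897. Of these 8 windows, those of Cldn6, Pkd1l1 and Itga7 held the AP-1 string.

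The shared members named were those with the highest summed score, with ties at the ceiling broken by the coding share of the peak. They were Gdf15, E130309D14Rik, now Ccdc92b, Synpo, which encodes the actin-associated protein synaptopodin, Pml, the scaffold gene of nuclear bodies, Trim14, Espn, encoding an actin-bundling protein, Dapk3, a kinase gene, and Urad, each with a score of 1000 in both lists. The Gdf15 peak covered chr8:73153436-73154216 in vehicle and chr8:73153433-73154242 in TGFβ 2 h, 781 and 810 bp wide, over the whole of the 629 bp coding segment. The Pml peak covered chr9:58094770-58095421, 652 bp, and chr9:58094782-58095394, 613 bp. Over all members, the median GC content of the whole peak was 58.0% in shared vehicle and 57.2% in TGFβ-only peaks.

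No gene had more than 2 member loci, and 14 genes had 2. In some of them both peaks lay in 1 long exon with scores close to the lowest value. Rimbp2, encoding a binding partner of presynaptic RIM proteins, had TGFβ-only peaks of 131 and 134 bp with scores of 548 and 543 in an exon of 813 bp. Frmpd4, encoding a synaptic scaffold, had TGFβ-only peaks of 131 and 228 bp with scores of 544 and 541. Cand2, encoding a regulator of cullin ligases, had vehicle-only peaks of 368 and 502 bp, both with a score of 541, in an exon of 1503 bp. The pairs in Def6 and in Tnrc6b, a gene of the miRNA silencing complex, lay in separate exons and were shared in both lists. At Def6 the scores were 1000 in both lists at coding exon 7, and 1000 in vehicle and 878 in TGFβ 2 h at coding exon 9.

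Of the 22208 distinct symbols of protein-coding genes 1.78% had a member, and each of the 12 gene lists had few genes with one. The share was 2.44% in the TGFβ pathway, 5.41% in junction and polarity genes and 3.88% in matrix and integrin genes. None of the 16 AP-1 genes, 12 genes of epithelial-to-mesenchymal transition factors or 39 Hox genes had a member. In the TGFβ pathway 1 of 41 genes had one, a vehicle-only peak with a score of 591 in Smad5, encoding an effector of BMP receptors (chr13:56837062-56837431). Among genes of cell junctions and polarity, Grhl2, encoding an epithelial transcription factor, had a TGFβ-only peak with a score of 656. Matrix and integrin genes had members in 4 of 103. They were Itga7, TGFβ-only, and Col15a1, Lamb1 and Itgb7, shared, with vehicle scores of 721, 611 and 1000.

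The remaining lists also had from 0 to 5 genes each with a member. Cytoskeletal genes had 3 of 25, a vehicle-only peak in Tln2 with 621, a shared peak in Plec, encoding the linker plectin, with 1000, and a TGFβ-only peak in Myh9, the gene of a nonmuscle myosin, with 587. Chromatin regulators had 3 of 38, in Prdm2, shared, in Setd5, vehicle-only, and in Ep300, the acetyltransferase gene, TGFβ-only with 638. Klf and Sp genes had 3 of 25, each with a wholly coding peak: Sp6, shared with 1000 in vehicle and 736 in TGFβ 2 h, Sp8, vehicle-only with 747, and Sp7, TGFβ-only with 577. Notch and Wnt genes had 4 of 52, with Wnt5a at 589 and Notch3 at 634 vehicle-only, and Wnt10b at 555 and Lrp5 at 643 TGFβ-only. Zinc-finger genes named Zfp had 5 of 370, 4 TGFβ-only and 2 vehicle-only loci, of which Zfp777 had 2. None of the 36 protocadherin genes had one. These counts are too small to compare the lists with the 1.78% of all genes.

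Motif strings were searched on both strands in the 200 bp at each midpoint and, as the background, in 162165 windows of the same length at the middle of distal coding segments without a peak within 1000 bp. Shares count windows with at least 1 match. The strings were TGANTCA for AP-1, GGCGC and CAGACA for SMADs, GGAATG for TEAD, CCGGAA for ETS factors, GGGCGG for SP and KLF factors, CAGGTG for the E-box of SNAI and ZEB factors, TGTGGT for RUNX, AACNNGTT for GRHL and the CTCF core. GGCGC and GGGCGG can share bases.

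Over all members, the AP-1 string was in a smaller share of coding-exon windows than of intron windows, and the share in members differed by GC content. It was in 15 of 170 TGFβ-only windows, or 8.82% (5.42 to 14.0), where introns had 32.4% (30.7 to 34.1), and in 3 of 108 vehicle-only windows, or 2.78% (0.949 to 7.85), where introns had 10.8%. Shared members had it in 11% (6.25 to 18.6) of vehicle and 8.49% (4.53 to 15.4) of TGFβ 2 h windows, and introns in 28% and 30.0%. Coding windows without a peak had it in 4.75%. The intervals of TGFβ-only and vehicle-only members overlapped. From 50 to 55% GC the string was in 7 of 20 shared vehicle windows, or 35% (18.1 to 56.7), where introns had 27.2%, and in 4 of 18 shared TGFβ 2 h windows, or 22.2%, where introns had 27.7%. Below 50% GC it was in 3 of 6 shared vehicle windows and 2 of 9 shared TGFβ 2 h windows. TGFβ-only members had it in 21.4% (7.57 to 47.6) of windows below 50% GC and in 10.7% (3.71 to 27.2) from 50 to 55%, where introns had 35.4% and 32.4%. At 60% GC or more it was in 1 of 50 shared vehicle, 1 of 57 shared TGFβ 2 h and 3 of 66 TGFβ-only windows, where introns had 20.9%, 22.4% and 21.9%. From 55 to 60% GC it was in 0 of 24 shared vehicle, 2 of 22 shared TGFβ 2 h and 6 of 62 TGFβ-only windows, where introns had 27.8%, 29.6% and 28.0%. Vehicle-only members had it in 1 of 10, 1 of 22, 1 of 33 and 0 of 43 windows from the lowest to the highest range, where introns had 17.1%, 8.52%, 7.21% and 6.33%. The part of GC content in the pooled shares was not tested. When the whole peak was searched, the shares were 10.2% in vehicle-only and 17.6% in TGFβ-only members, and 28% and 26.4% in shared ones. Of the 15 strings in TGFβ-only windows, 10 were made of coding bases alone, where 80.4% of the window bases were coding. So were 2 of 3 strings in vehicle-only, 6 of 11 in shared vehicle and 5 of 10 in shared TGFβ 2 h windows. There 76.0%, 77.5% and 74.3% of the bases were coding. In Pkd1l1 the string sat at the midpoint.

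The SMAD string GGCGC had the opposite pattern, and GC content moved with it. It was in 27.8% (20.2 to 36.9) of vehicle-only and 28.2% (22.0 to 35.4) of TGFβ-only windows, and in 51% (41.3 to 60.6) and 50% (40.6 to 59.4) of shared vehicle and TGFβ 2 h windows. Introns had it in 15.0%, 8.83%, 13.3% and 12.6% of the same classes, and coding windows without a peak in 9.93%. The median GC content of the windows was 58% in vehicle-only, 58.5% in TGFβ-only, and 60% and 60.5% in shared members, against 49% in coding windows without a peak. Among windows with at least 60% GC, the string was in 53.5% of vehicle-only, 43.9% of TGFβ-only, 76% of shared vehicle and 77.2% of shared TGFβ 2 h members, and in 32.1% of windows without a peak. From 55 to 60% GC it was in 18.2% of vehicle-only and 21.0% of TGFβ-only members, and in 45.8% and 27.3% of shared vehicle and TGFβ 2 h members, against 16.3%. From 50 to 55% it was in 0 of 22 vehicle-only, 2 of 20 shared vehicle, 2 of 18 shared TGFβ 2 h and 5 of 28 TGFβ-only members, against 10.7%, and below 50% in at most 1 window of each class, against 4.20%. The part of GC content in the remaining difference was not tested.

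The other SMAD string, CAGACA, was in 17.1% (12.1 to 23.4) of TGFβ-only and 12.0% (7.17 to 19.5) of vehicle-only windows, and in 12% of shared vehicle and 8.49% (4.53 to 15.4) of shared TGFβ 2 h windows, with 17.8% in coding windows without a peak and 31.2% in TGFβ-only intron peaks. GGGCGG was more frequent in members than in windows without a peak, up to 21.7% in shared TGFβ 2 h members, against 4.48%, and it too is made of G and C alone. The CTCF core, a long site of the insulator protein CTCF, was in 4 of 108 vehicle-only, 6 of 100 shared vehicle, 3 of 106 shared TGFβ 2 h and 1 of 170 TGFβ-only windows, and in 0.141% of windows without a peak. Intron peaks of the same classes had it in 7.13%, 2.62%, 2.63% and 1.95%, with intervals that overlapped those of the members in each class. Synpo2l and Cul9, which encodes a ubiquitin ligase subunit, held it in the member windows of both lists. CAGGTG was in 25.9% of vehicle-only, 27.6% (21.5 to 34.8) of TGFβ-only, and 20% and 20.8% of shared windows, against 20.6% without a peak. Introns had it in 20.8%, 15.9%, 16.7% and 15.7% of these classes. The TEAD string was in 6.60% to 13.0% of member windows over the classes and the ETS string in 5.88% to 8%, against 10.5% and 4.78%. The RUNX string was in 10% to 17.6% and the GRHL string in 1.18% to 3%, against 14.2% and 3.18%. A match is a run of letters, not a bound site.

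**Figure D5:**
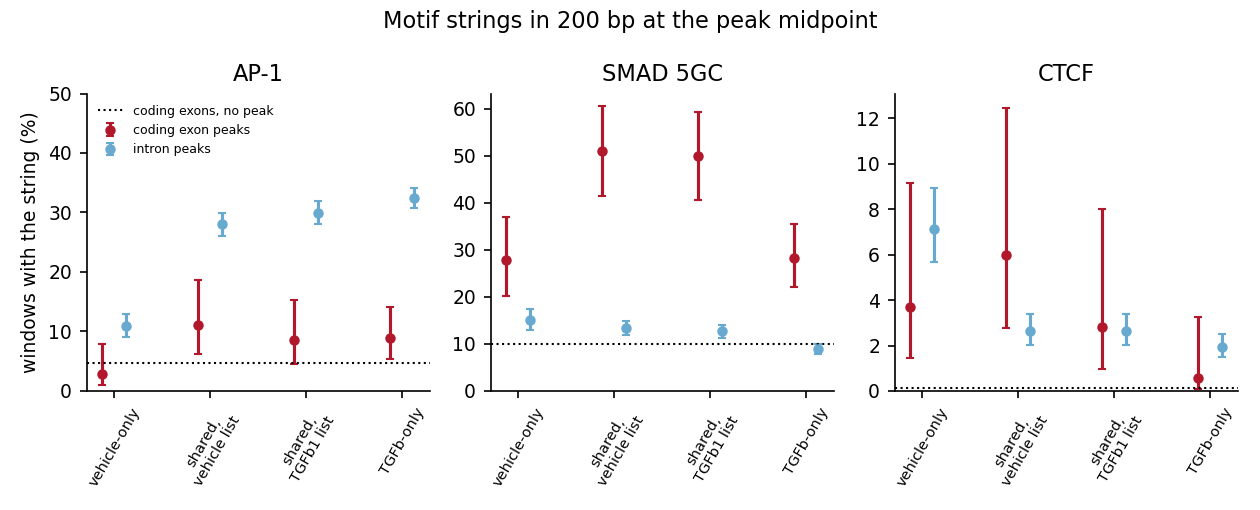
Share of 200 bp windows (y axis, percent, a separate linear scale in each panel) that held the AP-1, SMAD 5GC (GGCGC) or CTCF string, for coding-exon and intron peaks by class. Points are shares, lines Wilson 95% intervals and dotted lines coding windows without a peak. Coding-exon points lie below intron points for AP-1 and above them for GGCGC in every class.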

How the data were processed

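DNaseI-seq peak lists of 2 NMuMG samples, vehicle and TGFβ 2 h, were used, grouped by their titles. Per the study's methods, the authors aligned reads to mm9 and ran their ATAC-seq pipeline with DNaseI-seq options that are not stated. The submitters' processing notes name MACS2 2.1.2 and deepTools. The methods give an irreproducible discovery rate step for ATAC-seq, and its use here is not stated. The score deposited by the authors is a whole number from 540 to 1000, used to rank and filter peaks within a list, to count unshared peaks in score ranges and to set overlapping peaks of the lists side by side. It is not known to be on 1 scale in both lists. The lists held 70449 and 68542 rows, and identical intervals were collapsed, to 17784 and 22600 in all. What repeated rows stand for is not stated.

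Peaks were placed with GENCODE M1 on NCBIM37, the same assembly as mm9, in Python 3.11.15 with numpy 2.4.6 and scipy 1.17.1. Coordinates are 1-based. Shares have Wilson, ratios exact binomial and densities exact Poisson 95% intervals. PCR reads without molecular identifiers lie behind the peaks, and intervals cover counting of peaks alone. The overlap and motif steps were tested on simulated intervals and sequences. Of 395 member genes, 391 matched a RefSeq symbol (GRCm38.p6, names and start sequences only) by symbol or synonym.

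The members and gene lists were chosen with earlier results of these data known. Named members were the 8 highest in score of each unshared class, the 8 shared loci highest in summed score, genes with 2 loci, and up to 4 members of each gene list, of which 1 is not reported here. Genes with 2 loci were described after their values were seen. Alternatives changed the start windows, the midpoint rule, the overlap, the score and width filters, the list length and the motif window.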

Additional observations from a re-analysis of the deposited data

How the results depend on the processing

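Of 168 alternative values, 124 stayed within the 95% interval of the reported value or, for numbers of members, within 1.5 times of it, 43 moved further and 1 reversed. Each alternative recomputed the values with other members or settings, and the cause of a shift was not tested. The ratio of TGFβ-only to vehicle-only peaks stayed above 1 in 13 of 14 alternatives and was 0.303 with lists of equal length. Coding exons were denser than introns in all 12 alternatives of that measure, with the ratio at 1.80 in vehicle and 1.24 in TGFβ 2 h at the score ceiling and at 1.23 in TGFβ 2 h with equal lists. Members numbered 566 and 584 over every deposited row, 497 and 650 with any coding base, 110 and 183 with at least 50% of bases coding and 32 and 38 at the ceiling in vehicle and TGFβ 2 h, and 122 in TGFβ 2 h with equal lists. The vehicle-only share was 42.8% over rows, 41.9% with any coding base, 6.25% at the ceiling and 63.5% with equal lists, and the TGFβ-only share 52.1% over rows, 68.1% with reciprocal overlap of 50%, 67.2% with at least 50% coding, 7.89% at the ceiling and 32.8% with equal lists. Below the ceiling, a filter chosen after seeing the data like the AP-1 and distance filters, these shares were 60.2% and 70.2%.

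With any coding base, median widths were 702 bp in shared vehicle, 628 bp in shared TGFβ 2 h and 411 bp in TGFβ-only peaks, and AP-1 shares 19.7%, 20.1% and 17.8%. With at least 50% coding, the median width was 523 bp and the AP-1 share 1.67% in shared TGFβ 2 h peaks, no vehicle-only peak reached the ceiling (0%), and median GC was 60% in vehicle-only, 66.5% in shared vehicle and 65% in shared TGFβ 2 h peaks. Over the whole peak, AP-1 shares were 10.2% in vehicle-only, 28% and 26.4% in shared and 17.6% in TGFβ-only peaks, and median GC was 58.0% in shared vehicle and 57.2% in TGFβ-only peaks. In 100 bp the AP-1 share was 3.77% in shared TGFβ 2 h and 3.53% in TGFβ-only peaks. No paired analysis was possible because a single list stood for each treatment. Without read counts, depth limits what can be said of any peak missing from 1 list.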
